A study of Mus musculus with 2 samples.

Results

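The regions described here are stretches of methylated mouse liver DNA that overlap the 3' end of a RefSeq transcript, where the transcript stops. None is listed as overlapping a transcript's 5' end, and a listing as covering a whole transcript was not used to exclude any. They were chosen from the position that the deposited lists give for each region against each transcript within 10 kb, so neither tag numbers nor the genotype entered the choice. In the longer deposited list they were 609 of 97063 regions in the Pemt-/- mouse, a share of 0.627% (95% Wilson interval 0.580 to 0.679%), and 772 of 131279 in the Pemt+/+ mouse, a share of 0.588% (0.548 to 0.631%).

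Pemt encodes phosphatidylethanolamine N-methyltransferase, which makes phosphatidylcholine in hepatocytes, and the study asked how its loss changes the liver under a high fat-high sucrose (HFHS) diet. Both mice received HFHS chow from 5 weeks of age, and their livers were collected at 25 weeks according to the sample records. The Methods of the study describe male mice, and more than 1 mouse per genotype and earlier collection times just before the enrichment step. Each library is called a mouse here, though the number of animals in it was not checked. The Pemt-/- mouse lacked Pemt in all cells and the Pemt+/+ mouse was wild type, with 1 library per genotype. With no replicate, no p-value was computed, and what is compared throughout is a pair of libraries rather than genotypes. Fragments with methylated CpG were pulled out by a protein domain that binds them, and the sample records also mention bisulphite conversion. A region is a place where captured reads piled up, and its tags are the reads in it. Regions do not show whether a gene is intact, so the Pemt labels were not checked by them. In DNA of whole liver, another mix of cell types and another methylation within a cell type cannot be told apart. All regions of the longer list together contained 1582080 tags for Pemt-/- and 2847831 for Pemt+/+, with at least 8 and 9 tags in each region.

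In mammals most CpG sites outside promoters are methylated, and the bodies of transcribed genes carry methylation up to their last exons. Promoters rich in CpG are mostly unmethylated, so a methylated region at a 5' end is the less usual case. The 3' end of a transcript holds the last exon and the site of cleavage and polyadenylation, and neighbouring genes can meet there or begin shortly after it.

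The sequence at 1 of the 3' ends is shown because the end of one gene there lies beside the promoter of the next. This place was picked after its values were seen. A Pemt-/- region of 474 bp on chromosome 9, from 20871547 to 20872020 in mm9, held 10 tags and overlapped the 3' end of Fdx1l, a ferredoxin gene. It ended 10 bp before the start of the transcript named Glp1 in the lists, which by its gene identifier is Zglp1, a zinc finger gene of the germ line. In Pemt+/+ the overlapping region held 14 tags and reached over that 5' end, so it is not among the 3' end regions of that mouse. The RefSeq promoter of Zglp1, at chr9:21067044-21067343 on the minus strand of GRCm38.p6, reads as follows with each CG in capitals.
Zglp1 promoter: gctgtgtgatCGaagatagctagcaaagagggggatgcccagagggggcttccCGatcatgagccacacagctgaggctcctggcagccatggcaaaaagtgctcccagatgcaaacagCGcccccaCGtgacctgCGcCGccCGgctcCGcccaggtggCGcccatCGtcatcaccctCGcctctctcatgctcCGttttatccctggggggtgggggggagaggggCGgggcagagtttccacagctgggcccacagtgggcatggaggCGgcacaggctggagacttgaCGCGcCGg
It holds 17 CG in 300 bases, and 31.4% of the 32851 promoters in the table held at least as many (median 7). If the transcript starts at the same base in both annotations, 240 of these bases lie in the Pemt-/- region. No other sequence of the regions was read here, since the coordinates are those of mm9 and no genome of that build was used.

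More regions covered 3' ends than points downstream of them. Counted as pairs of a region and a gene, regions covered 641 3' ends in Pemt-/-, whereas points 3 to 10 kb downstream were covered by a mean of 372 (330 to 431), a ratio of 1.72. In Pemt+/+ they covered 817 3' ends against a mean of 524 (457 to 586), a ratio of 1.56. The 3' end count was above every downstream point in both mice. At the 5' end the order was the opposite, with 249 covered in Pemt-/- against a mean of 346 at 3 to 10 kb upstream, a ratio of 0.719, and 371 against 488 in Pemt+/+, a ratio of 0.761. The ratios at the 3' end were 1.66 and 1.52 when the clustered protocadherin genes, of which many share 1 end, were left out.

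**Figure D1:**
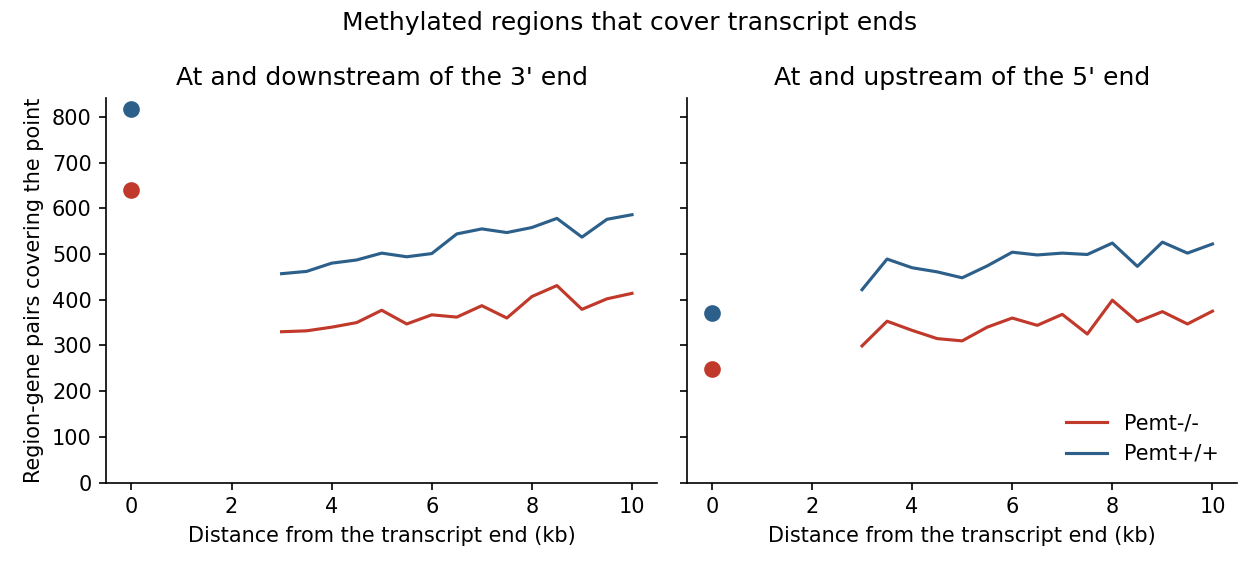
Pairs of a methylated region and a gene (y axis) that cover the transcript end (points at 0 kb) or a point 3 to 10 kb outside the transcript (lines, x axis in kb), for the Pemt-/- library (red) and the Pemt+/+ library (blue). On the left, the points at the 3' end, 641 and 817, lie above their lines (nearer points are not drawn, since regions on the end cover them too), and on the right, those at the 5' end, 249 and 371, lie below them.

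The stretch just inside the 3' end was covered more often than the end itself. Among 4526 genes of at least 10 kb whose 3' end could be placed from a downstream region, a Pemt-/- region covered the point 1000 bp inside the end in 6.39% (95% Wilson interval 5.71 to 7.14%). The end itself was covered in 4.37% (3.82 to 5.01%), and the point 5000 bp inside in 3.60% (3.10 to 4.18%). In Pemt+/+ the 3 shares were 8.24% (7.48 to 9.08%), 5.35% (4.73 to 6.04%) and 5.19% (4.58 to 5.88%). In both libraries the interval at 1000 bp inside lay above those at the end and at 5000 bp inside.

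**Figure D2:**
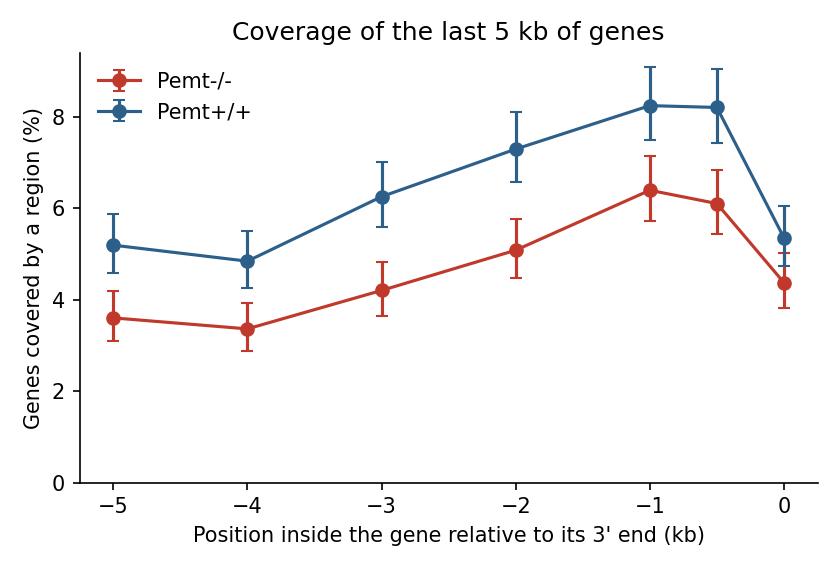
Share of 4526 genes covered by a methylated region (y axis, %) at points inside the gene, by the distance from its 3' end (x axis in kb, 0 is the end), with 95% Wilson intervals. In both libraries the share is highest 0.5 to 1 kb inside the end, at 6.10% and 6.39% in Pemt-/- (red) and at 8.20% and 8.24% in Pemt+/+ (blue).

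The 3' end regions themselves lay mostly on the transcript side. The exact end could be placed in 262 Pemt-/- and 329 Pemt+/+ regions, in which a median of 66.7% (order-statistic 95% interval 61.0 to 73.2%) and 67.6% (61.4 to 72.3%) of the width lay inside the transcript. The summit, where reads were densest, was inside in 177 of the 262 (67.6%, 61.7 to 72.9%) and in 214 of the 329 (65.0%, 59.7 to 70.0%). Most regions touched the end of 1 gene, 600 in Pemt-/- and 761 in Pemt+/+. Of all 3' end regions, 396 (65.0%) in Pemt-/- and 471 (61.0%) in Pemt+/+ had no other gene within 10 kb. The start of another gene was within 10 kb in 85 (14.0%) and 141 (18.3%), and the end of another gene in 126 (20.7%) and 170 (22.0%). Another transcript of the same gene ran past the region in 24 and 29 cases, so that the methylated stretch lay at the end of a shorter form.

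The region with the most shared genes was at the end of the gamma protocadherin cluster on chromosome 18, from 38001156 to 38001598 in Pemt-/-. Protocadherins of this cluster are neuronal adhesion molecules whose variable first exons are joined to common last exons. This region overlapped the 3' end of 22 genes, with 27 tags in the Pemt-/- library and 25 in the other.

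The 3' end regions were wider than the average region. Their median width was 514 bp in both mice, against 421 and 423 bp over all regions. A wide region meets a given point more often, and when all regions were weighted by width the medians were 490 and 496 bp. They held a median of 16 tags in Pemt-/- (quartiles 12 and 23, range 8 to 321) and 21 in Pemt+/+ (14 and 33, range 9 to 569). Over all regions the medians were 13 and 17 tags, and 15 and 20 when weighted by width. Per 100 bp the 3' end regions held a median of 3.23 and 4.23 tags, and all regions 3.22 and 4.08. Tag density at 3' ends was therefore close to that elsewhere. The median fold enrichment over the background, as deposited, was 16.1 and 16.0.

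The region with the most tags in both mice was at Mid1, a ubiquitin ligase gene that crosses the pseudoautosomal boundary of the mouse X chromosome. Its tags numbered 321 in Pemt-/- and 569 in Pemt+/+, and in Pemt-/- it spanned 166427720 to 166428869. Its fold enrichment was 7.16 and 6.40, below the median of the class. A region on chromosome 11 at the ends of Sfi1, a centrosome gene, and of the pseudogenes Pisd-ps1 and Pisd-ps3 held 158 and 151 tags. Reads from near-identical copies, such as those of pseudogenes, cannot be assigned to a place with certainty, so these tags are uncertain.

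Other 3' ends with many tags belonged to single genes. At Lrrc8c, a subunit of volume-regulated anion channels on chromosome 5, the Pemt-/- region held 90 tags and the Pemt+/+ region 155. At Ppargc1b, a coactivator of genes of mitochondria and lipid metabolism, it held 79 and 127 tags. At Dtymk, thymidylate kinase, it held 72 and 114 tags. Each of these had more tags in Pemt+/+, the library with more tags in total. Zbtb38, which encodes a zinc finger protein that binds methylated DNA, was among the 5 highest in Pemt+/+ with 145 tags and had 52 in Pemt-/-. Its Pemt+/+ region was 2513 bp wide, and its Pemt-/- region, from 96585710 to 96586741, was narrower.

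Most 3' end regions were found in both livers. Of the Pemt-/- regions, 525 of 609 (86.2%, 95% Wilson interval 83.2 to 88.7%) shared at least 1 bp with a Pemt+/+ region, and of the Pemt+/+ regions 535 of 772 (69.3%, 66.0 to 72.5%) overlapped a Pemt-/- region. Found in 1 mouse only were 84 in Pemt-/- (13.8%), against 16.7% of all its regions, and 237 in Pemt+/+ (30.7%), against 38.4% of all its regions. The unequal shares of the mice went with the longer Pemt+/+ list. With lists of equal size the shares found in the other mouse were 76.2% and 78.6%.

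**Figure D3:**
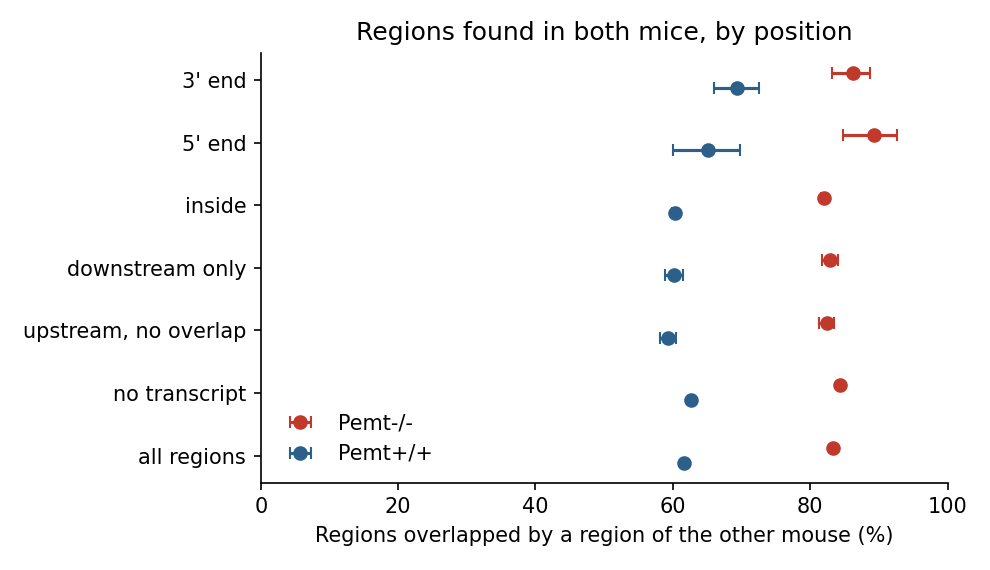
Share of regions overlapped by a region of the other mouse (x axis, %) for each position class (y axis), with 95% Wilson intervals, in Pemt-/- (red) and Pemt+/+ (blue). At 3' ends the shares are 86.2% and 69.3%, and over all regions 83.3% and 61.6%.

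Tag number moved with these shares. Among 3' end regions of up to 12 tags, 71.1% (64.2 to 77.0%) were found in the other mouse in Pemt-/- and 37.4% (29.6 to 45.9%) in Pemt+/+. Among those of 21 or more tags the shares were 98.4% (95.5 to 99.5%) and 88.6% (85.1 to 91.4%). Over all regions with the same numbers of tags the shares were 69.9% and 30.9%, and 98.7% and 88.4%. From 13 to 20 tags they were 88.5% (83.7 to 92.1%) and 55.5% (49.2 to 61.5%) at 3' ends and 91.6% and 56.7% over all regions. In each of these 3 ranges and in both mice, the interval at 3' ends held the value of all regions.

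The overlapping region was not always at the 3' end as well. Of 510 Pemt-/- regions with a single partner, the partner was a 3' end region in 426 (83.5%), lay inside a transcript in 65 (12.7%) and lay wholly downstream in 13 (2.55%). Of 513 such Pemt+/+ regions these counts were 426, 62 and 20. So a 3' end region listed in 1 mouse could still have a methylated partner in the other, shifted off the end.

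The regions found only in Pemt-/- held few tags, a median of 12 against 17 in those found in both, and 4 of the 84 held 20 or more. By score, which is 10 times the -log10 p-value of the peak caller, the highest was at Phrf1, a PHD and RING finger gene on chromosome 7, with 13 tags. Next were Lrrc9 with 17 tags, and Grb10, an imprinted adaptor of the insulin receptor, with 16. Tpst2, a tyrosylprotein sulfotransferase, followed with 22 tags and Bfar, an apoptosis regulator, with 17. The nearest Pemt+/+ region was 3240 to 5969 bp away from each of the 5.

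The regions found only in Pemt+/+ held a median of 15 tags against 26 in those found in both, and 50 of the 237 held 20 or more. The highest score was at Vdr, the vitamin D receptor gene on chromosome 15, with 26 tags from 97684697 to 97685036. The next was at the facing ends of Dctn2, a dynactin subunit, and Mbd6, a methyl-CpG-binding domain gene, with 23 tags. Polr2h, a subunit of RNA polymerases, had 25 tags, Nr3c1, the glucocorticoid receptor gene, had 19, and Olfr1037, an olfactory receptor gene, had 17. The nearest Pemt-/- region was 1024 bp from the region at Vdr and 1314 bp from that at Dctn2 and Mbd6.

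Where both mice had a 3' end region, tags differed by about the same factor as everywhere. Over the 426 pairs the median of the tag ratio (Pemt-/- over Pemt+/+) was 0.670 (order-statistic 95% interval 0.647 to 0.704), beside 0.682 (0.680 to 0.684) over all 79393 paired regions and 0.690 (0.688 to 0.692) inside transcripts. The pairs contained 9343 Pemt-/- tags and 14240 Pemt+/+ tags, a Pemt-/- share of 39.6% (39.0 to 40.2%), beside 39.9% over all pairs. These intervals treat reads as independent molecules, which they need not be, and cover counting error only. Tags were counted in each region as called, and the 2 regions of a pair can differ in width. The median width of the paired regions was 502 bp in Pemt-/- and 540 bp in Pemt+/+. How far width carried the ratios was not tested. The total number of reads per library is not given in the lists, so the ratio of all pairs served as the reference. Relative to it, 9 pairs (2.11%) had at least 2-fold more tags in Pemt-/-, against 2.12% of all pairs, and 6 (1.41%) at least 2-fold fewer, against 1.93%. Among pairs of at least 50 tags, relative to the same ratio, these shares were 1.2% and 1.8%.

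**Figure D4:**
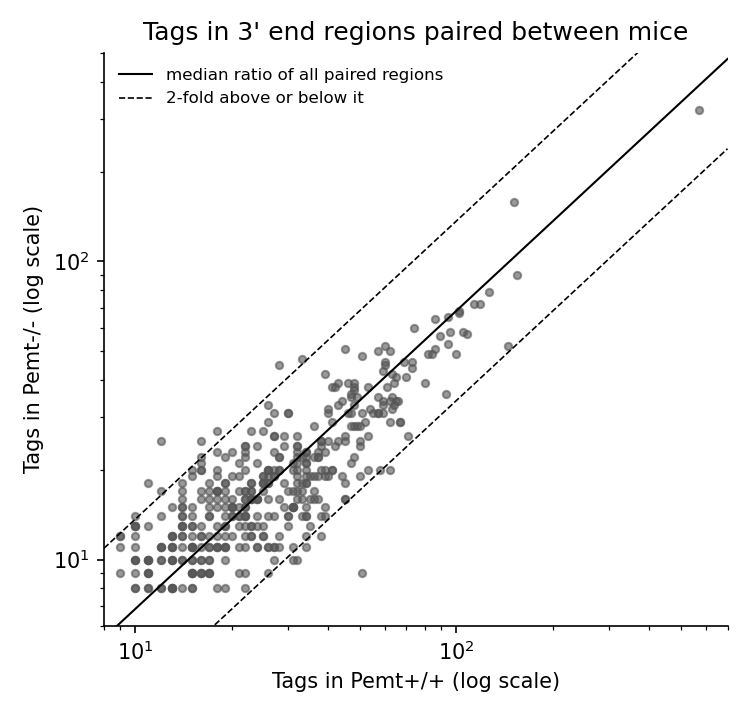
Tags of the 426 paired 3' end regions in Pemt+/+ (x axis) and Pemt-/- (y axis), both on log scales, with 1 point per pair. The solid line is the median ratio of all paired regions, 0.682, and the dashed lines are 2-fold above and below it. 9 points lie on or above the upper dashed line and 6 on or below the lower one.

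Of the 167 pairs of at least 50 tags together, 8 (4.79%) had a Pemt-/- share of tags whose 95% Wilson interval lay above the 39.9% of all pairs, against 2.78% of all pairs of that size. In 13 (7.78%) it lay below, against 6.74%. The lowest ratio was at Hs3st2, a heparan sulfate sulfotransferase gene on chromosome 7, with 9 tags in Pemt-/- and 51 in Pemt+/+, a Pemt-/- share of 15.0% (8.10 to 26.1%). The region spanned 128644958 to 128645431 in Pemt+/+. Then came Defb42, a beta-defensin gene, with 12 and 38 tags, and Prmt10, a protein arginine methyltransferase gene, with 20 and 62. 1700020D05Rik had 20 and 58 tags, and Ate1, an arginyltransferase gene, had 16 and 45. In each of these 5 the interval lay below 39.9%.

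Among the pairs with the highest ratios was Mn1, a transcription cofactor gene on chromosome 5, with 45 tags in Pemt-/- and 28 in Pemt+/+. The Pemt-/- share was 61.6% (50.2 to 71.9%). The Pemt-/- region ran from 111885460 to 111886400, and the Pemt+/+ region, from 111885612 to 111886194, was narrower. Timm9, a chaperone of mitochondrial protein import, had 33 and 26 tags. Rpia, ribose 5-phosphate isomerase, had 27 and 23 tags, and Frmd6, a FERM domain gene, had 31 and 27. In each of these 4 the interval lay above 39.9%, the lowest bound being 40.4% at Rpia. The pairs with the lowest and highest ratios were picked by those ratios. Their intervals are not adjusted for the picking and are no separate evidence for a single gene.

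The shorter list of each mouse is a separate set of regions, and neither the labels nor the Methods say against what they were called. Of the 3' end regions, 8 of 609 in Pemt-/- (1.31%, 0.667 to 2.57%) overlapped a region of the shorter list, against 2.13% of all regions, and 24 of 772 in Pemt+/+ (3.11%, 2.10 to 4.58%), against 4.59%. By the rule for 3' ends applied within them, the shorter lists held 8 regions of 2160 and 26 of 6098. The false discovery rate deposited for them was 100% for each of the 8 and 22.9 to 36.2% for the 26. In Pemt-/- the highest scores were at Phrf1 with 13 tags, Pkdcc, a secreted kinase gene, with 10, B230399E16Rik with 15, Cdh23, a cadherin gene, with 12, and Mn1 with 45. In Pemt+/+ they were at Hs3st2 with 51 tags, Ndufb4, a subunit of respiratory complex I, with 32, Pex13, a peroxisome import gene, with 15, Prmt10 with 62, and 1700065I17Rik with 93. Phrf1 is the region found only in Pemt-/- that is named above, and Mn1, Hs3st2 and Prmt10 are among the pairs with the highest and lowest ratios.

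By gene, 638 genes had a 3' end region in Pemt-/- and 802 in Pemt+/+. The 466 genes with one in both were 73.0% of the former and 58.1% of the latter. In either mouse they were 974 of the 14480 genes of the lists (6.73%). Their median length was 28.8 kb (26.4 to 32.5 kb), between the 21.2 kb (20.6 to 21.9 kb) of the other genes and the 31.4 kb (30.5 to 32.2 kb) of the genes with a region inside, whose interval it overlapped.

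Among lists of liver metabolism and hepatocyte function, several had no gene with a methylated region at the 3' end. None was found in either mouse in 22 genes of triglyceride and fatty acid synthesis (interval 0 to 14.9%) or 16 of fatty acid oxidation (0 to 19.4%). The same held for 15 genes of lipoproteins and their receptors (0 to 20.4%) and 19 hepatocyte transcription factors (0 to 16.8%). Of 17 genes of cholesterol and bile acid metabolism, only Sqle, squalene epoxidase, had one, with 35 tags in Pemt-/-, where the Pemt+/+ region of 48 tags lay inside the gene. Of 22 secreted hepatocyte proteins, only F10, coagulation factor X, had one, with 11 tags in Pemt-/- and no overlapping region listed in Pemt+/+. Of all Pemt-/- 3' end regions with up to 12 tags, 71.1% were found in Pemt+/+. In each of these lists the interval of the share held the 6.73% of all genes. Hnf4a, a hepatocyte transcription factor that the study follows, had 1 region inside in each mouse and none at its 3' end, and Pemt had 2 inside in each and none at its 3' end.

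Of 22 genes of phosphatidylcholine synthesis and the methyl donor cycle, 3 had a 3' end region in 1 mouse each. At Bhmt2, which transfers methyl groups to homocysteine, the region held 33 tags in Pemt-/-, and the Pemt+/+ region of 32 tags lay downstream. At Chdh, choline dehydrogenase, 15 tags were listed in Pemt+/+ only. At Lpcat1, which reacylates lysophosphatidylcholine, 29 tags were listed in Pemt+/+ only. So of the 3, Chdh and Lpcat1 had no overlapping Pemt-/- region, as had 30.7% of all Pemt+/+ 3' end regions. Bhmt2 differed only in its position against the end. Of 15 genes of the DNA methylation machinery, Dnmt1, the maintenance methyltransferase gene, had a region of 18 tags in Pemt+/+ only. Of all Pemt+/+ 3' end regions with 13 to 20 tags, as at Chdh and Dnmt1, 55.5% were found in Pemt-/-. With 21 or more tags, as at Lpcat1, 88.6% were.

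Of 24 genes of the p53 pathway, apoptosis and the cell cycle, Fbxo31 and Mdm2 had a 3' end region. Fbxo31, an F-box gene that the study follows for its part in cyclin D1 degradation, had one in both mice on chromosome 8. It spanned 124075856 to 124076436 with 22 tags in Pemt-/- and 124075644 to 124076491 with 37 tags in Pemt+/+, a Pemt-/- share of 37.3% (26.1 to 50%) whose interval held the 39.9% of all pairs. Mdm2, the ubiquitin ligase of p53, had a region of 14 tags in Pemt+/+ only. Of all Pemt+/+ 3' end regions with 13 to 20 tags, 55.5% were found in Pemt-/-.

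Of 21 genes of fibrosis and inflammation, 4 (19%, 7.67 to 40.0%) had a 3' end region, an interval above the 6.73% of all genes. At Tnf, the cytokine gene, there were 9 tags for Pemt-/- and 15 for Pemt+/+. At Timp2, a metalloproteinase inhibitor, a Pemt-/- region of 33 tags overlapped a 3' end region of 21 tags in Pemt+/+ and another region inside the gene. At Cd14, the lipopolysaccharide co-receptor, Pemt+/+ had 29 tags, and the Pemt-/- region of 10 tags lay downstream. Pdgfb, a growth factor of stellate cells, had 15 tags in Pemt+/+ only. Of all Pemt+/+ 3' end regions with 13 to 20 tags, 55.5% were found in Pemt-/-.

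Of 29 imprinted genes, 5 (17.2%, 7.60 to 34.5%) had a 3' end region, again an interval above the 6.73% of all genes. Both lists are short, and their intervals are not adjusted for the number of lists. Peg3, a paternally expressed zinc finger gene, had 38 tags in Pemt-/- and 48 in Pemt+/+, and Rasgrf1, a Ras exchange factor gene, had 24 in both. Grb10 with 16 tags and the noncoding gene H19 with 11 were listed in Pemt-/- only, and Dlk1, a Notch ligand-like gene, with 22 tags in Pemt+/+ only. Of all 3' end regions, 13.8% in Pemt-/- and 30.7% in Pemt+/+ were found in 1 mouse only. In the ranges of tags of Grb10, H19 and Dlk1, 88.5%, 71.1% and 88.6% of the 3' end regions of that mouse were found in the other. Relative to the 0.682 of all pairs, the ratio was 1.16-fold at Peg3 and 1.47-fold at Rasgrf1, and together their Pemt-/- share of tags was 46.3% (38.0 to 54.7%), an interval that held the 39.9% of all pairs.

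**Figure D5:**
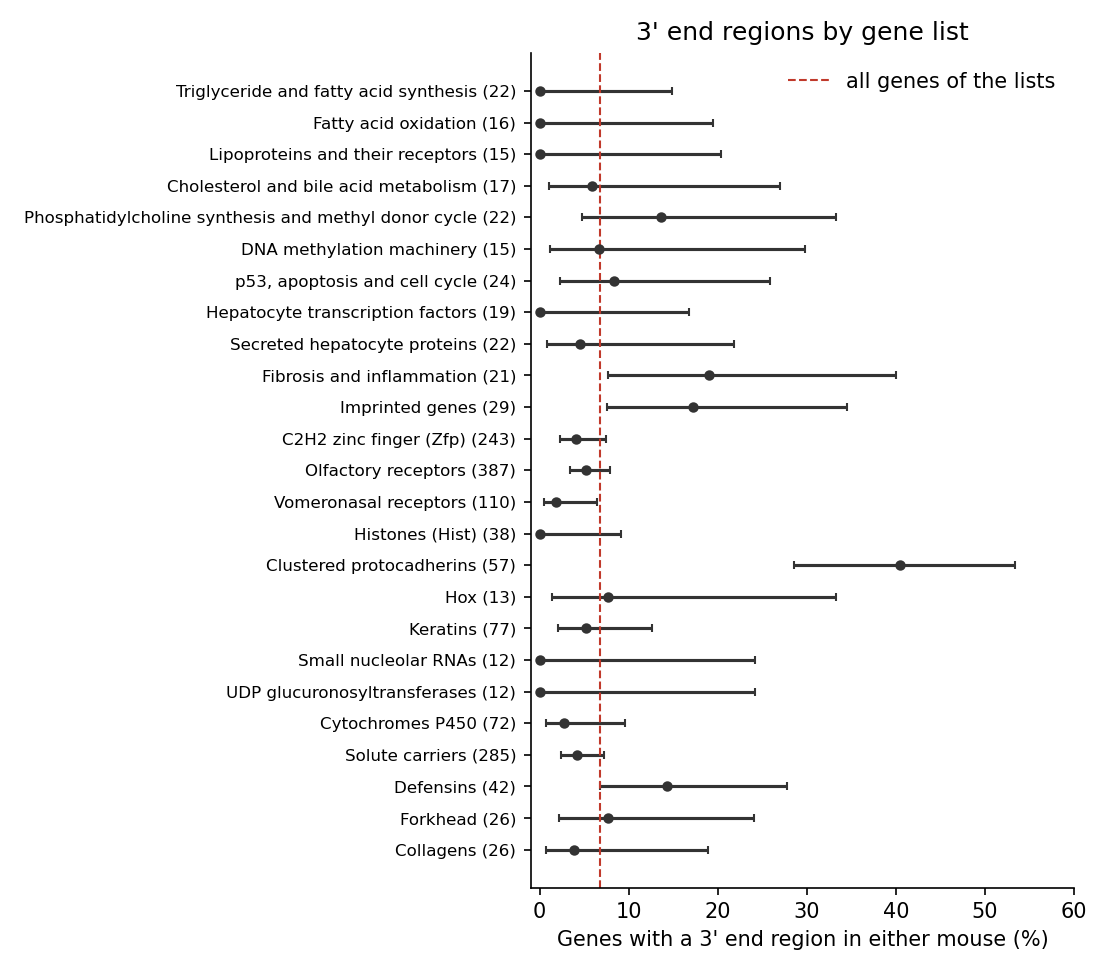
Share of the genes of each list with a 3' end region in either mouse (x axis, %), with 95% Wilson intervals and the number of genes in brackets. The dashed line is the share over all genes of the lists, 6.73%, and the list furthest from it, the clustered protocadherins at 40.4%, holds 23 genes, of which 22 share 1 region at a common end.

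For gene families the same count is set beside the 6.73% of all genes. Among the families of this paragraph and the next, only the vomeronasal receptors had an interval that did not hold it. Theirs lay below it, but part of their list was added after the values were seen. The intervals of the families are not adjusted for the number of lists. Of 387 olfactory receptor genes, which have a single coding exon, 20 (5.17%, 3.37 to 7.85%) had a 3' end region. In 10 of them it was paired between the mice, and Pemt+/+ had more tags in all 10, with 260 in sum against 148 in Pemt-/-. The largest of these was at Olfr599, with 32 and 63 tags. More tags in Pemt-/- were rare elsewhere too, in 11.7% of paired 3' end regions and 10.4% of all pairs. The Pemt-/- share of tags in the 10 pairs, 36.3% (31.8 to 41.0%), had an interval that held the 39.9% of all pairs. Of 110 vomeronasal receptor genes 2 had a 3' end region (interval 0.5 to 6.39%), V1rc6 with 11 tags in Pemt-/- and 18 in Pemt+/+, and V1rd6 with 12 in Pemt+/+ only. With up to 12 tags, 37.4% of Pemt+/+ 3' end regions were found in Pemt-/-. None of the 38 histone genes whose symbol begins with Hist had one (0 to 9.18%), whereas the histone variant gene H2afy2, outside that list, shared a region of 18 tags with Aifm2 in Pemt+/+.

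Defensins, small antimicrobial peptides, had a 3' end region in 6 of 42 genes (14.3%, 6.72 to 27.8%). The 4 pairs were at Defb14 with 11 tags in Pemt-/- and 10 in Pemt+/+, at Defb28 with 10 and 16, at Defb42 with 12 and 38, and at Defb48 with 10 and 15. Of 243 zinc finger genes named Zfp, 10 (4.12%, 2.25 to 7.41%) had one, the most tags being at Zfp146 with 69 in Pemt-/-, where the Pemt+/+ region of 115 tags lay inside the gene. Among 72 cytochrome P450 genes only the retinoic acid hydroxylases Cyp26b1, with 11 and 12 tags, and Cyp26c1, with 20 in Pemt+/+ only, had a 3' end region. With 13 to 20 tags, as at Cyp26c1, 55.5% of Pemt+/+ 3' end regions were found in Pemt-/-. Of 285 solute carriers 12 (4.21%, 2.42 to 7.21%) had one, among them the noradrenaline transporter Slc6a2 with 25 and 50 tags. Of 26 forkhead genes, Foxp1 had one with 60 and 74 tags. Foxk1 had one with 17 tags in Pemt+/+, where the overlapping Pemt-/- region of 13 tags lay inside a transcript.

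In the other families few genes had one. Of 77 keratin and keratin-associated genes 4 (5.19%) had a 3' end region. Of 26 collagens 1 did, Col9a3 with 12 tags in Pemt-/-, where the overlapping Pemt+/+ region of 18 tags lay inside a transcript. Of 13 Hox genes 1 did, Hoxa6 with 15 tags in Pemt+/+. None of 12 UDP glucuronosyltransferase genes and 12 small nucleolar RNAs had one. Each of these lists is small enough that the interval of its share held the 6.73% of all genes.

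The 3' end regions were spread over the chromosomes unevenly. On chromosome 11 they were 1.02% (0.770 to 1.34%) of the Pemt-/- regions and 0.962% (0.757 to 1.22%) of the Pemt+/+ regions, and on chromosome 7 they were 0.952% (0.715 to 1.27%) and 0.816% (0.627 to 1.06%). Chromosome 13 had 0.468% (0.315 to 0.696%) and 0.322% (0.213 to 0.487%), the latter below the whole list. Chromosome 1 in Pemt+/+ was below it too, at 0.413% (0.301 to 0.566%). Chromosomes 11 and 7 thus had higher shares than the whole list in both mice, with intervals above 0.627% in Pemt-/- and above 0.588% in Pemt+/+. In Pemt-/- the interval of chromosome 9 (0.846%, 0.629 to 1.14%) lay above 0.627% as well. None of these intervals is adjusted for the number of chromosomes. Chromosome 11 held 8.05% of the 3' end regions of Pemt-/-, 4.97% of all its regions and 5.89% of those inside transcripts. In Pemt+/+ these were 8.55%, 5.23% and 6.29%.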

How the data were processed

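Methylated liver DNA was captured with the EpiXplore kit and sequenced on a Genome Analyzer IIx, as 1 Pemt-/- and 1 Pemt+/+ library. The submitters' processing notes name CASAVA version 1.8.2, Bowtie and mm9, and the region names are those MACS gives. The caller's settings, its control and the treatment of duplicate reads, which change tag numbers and scores, are not given in the sources used here. The authors deposited tags as raw counts of reads, the fold enrichment as a ratio over the background, the score as 10 times the -log10 p-value (the lowest score was 50), and the FDR as a percent. Each list pairs regions with RefSeq transcripts within 10 kb.

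Each region was used once and classed by these deposited positions. Overlaps of at least 1 bp were found with bedtools version 2.31.1, and regions overlapping one to one were paired. The remaining steps were run in Python (3.11.15; pandas 2.3.3, scipy 1.17.1 and numpy 2.4.6), and plots were drawn with matplotlib 3.10.9. Shares have Wilson 95% intervals and medians order-statistic 95% intervals. With 1 library per genotype no test was run, and a ratio at least 2-fold from the median of all pairs was counted. A transcript's 3' end was taken from regions wholly downstream of it, with strands from the RefSeq table of GRCm38.p6, which also gave gene lengths.

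Named were, in each mouse, the 5 regions with the most tags, the 5 of highest score in 1 mouse only and the 5 of highest score in the shorter list, the 5 highest and 5 lowest ratios among pairs of at least 50 tags, regions at the ends of most genes, genes of fixed lists, and Fbxo31 and Hnf4a. The values of 1 gene that this rule names are not reported here. The members and lists were chosen with earlier results of these data known. Vomeronasal receptor genes under their older V1r and V2r symbols were added to their list after the values were seen. The alternatives were the upper 50% of each list by score, lists of equal size, autosomes only, regions that also overlap a 5' end, protein-coding transcripts only, an overlap of 50% of both regions, and minima of 20 or 50 tags per pair. Overlap, pairing and intervals were tested on simulated data. The study's mRNA and protein measurements were not used here.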

Additional observations from a re-analysis of the deposited data

How the results depend on the processing

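No paired analysis was possible because there is a single library of each genotype, and no replicate could be left out. Of 124 values recomputed under the alternatives, 101 stayed within their interval (counts: within 1.5-fold) and 23 moved. All 23 stayed with autosomes only, with regions that also overlap a 5' end, and with protein-coding transcripts. The upper 50% of each list left, by construction, 315 and 415 regions at 341 and 440 genes (Pemt-/- and Pemt+/+), with median tags of 22 and 31, widths of 552 and 581 bp, fold enrichments of 20.9 and 20.9, and scores of 129 and 172. The share of Pemt+/+ regions at 3' ends was then 0.632%, the shares found in the other mouse 80.0% and 63.1%, and the share of pairs at least 2-fold lower in Pemt-/-, relative to the median of the pairs left, 0.469%. Lists of equal size gave 76.2% and 78.6% found in the other mouse, and Pemt+/+ medians of 25 tags, 17.7-fold enrichment and a score of 137, so that the order of the mice turned in the share found and in the fold enrichment. An overlap of 50% of both regions gave 80.1% and 63.5%. The cause of the 0.469% was not tested. Few tags per region limit what a single region can show.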
